A study of Homo sapiens with 6 samples.

Results

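The effect of PF-04554878 on gene expression was examined in TT cells, a line of human medullary thyroid cancer, which arises from the C cells that secrete calcitonin. The comparison used 4 of the 6 arrays of the series: 2 arrays of TT cells treated with 10 μM PF-04554878 and 2 arrays of untreated TT cells. The remaining 2 arrays, from TT cells treated with 10 μM Y15, entered the fit and are used below only where the compounds are set side by side. Per the methods of the study, PF-04554878 was dissolved in DMSO and plates were collected a day after treatment. The labels name no vehicle for the controls, so effects of the compound and of its solvent cannot be told apart. Probes were kept when they were detected at p below 0.01 on at least 2 of the 4 arrays, which left 18234 of the 47317 probes with values. Of these probes 14589 named 11150 genes, each represented by its brightest kept probe.

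PF-04554878, also called defactinib, is an inhibitor of the kinase activity of focal adhesion kinase (FAK). FAK is a tyrosine kinase that gathers at the sites where integrins anchor a cell to its matrix, and it passes signals from integrins and growth factor receptors to Src, PI3K and MAPK pathways. Through these pathways, attachment to the matrix is known to control survival, migration and entry into the cell cycle.

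Levels are quantile normalized log2 intensities, in which an increase of 1 is a doubling of the measured intensity. A gene was said to have risen or fallen when its adjusted p (limma, Benjamini-Hochberg over all genes tested) was below 0.05 and its change was at least 1.2-fold. Background-subtracted signal averaged 252 and 242 on the PF-04554878 arrays, against 420 and 353 on the untreated arrays, a ratio of 0.639. Per the methods a fixed mass of total RNA was labeled, so signal does not measure cell number, and normalization removes a shift shared by all genes. For any gene, fewer cells that express it and less of its RNA per cell cannot be told apart. Detected probes numbered 15215 and 15671 in PF-04554878 cells, against 17474 and 18488 in untreated cells. Arrays of the same group correlated at 0.993 for PF-04554878 and 0.989 for untreated cells, while arrays of different groups correlated at 0.871 to 0.897. The methods describe duplicate plates, so p-values measure the spread between these arrays, which may be technical.

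The C-cell identity of the cells was visible in both groups. CALCA, which codes for calcitonin, measured 13.65 and 13.70 in PF-04554878 cells and 13.88 and 13.65 in untreated cells, near the top of the scale. Its log2 change was -0.09 (adjusted p = 0.46) and the groups overlapped. Of 22 markers of C cells and neuroendocrine cells, 19 were measured. Of these markers 7 (36.8%) rose and 3 (15.8%) fell, none by 2-fold, beside 27.9% and 35.9% of all genes tested. Their median change was 0.04, and -0.046 with 2 higher and 9 lower under median scaling over all probes. CEACAM5, which codes for the tumor marker carcinoembryonic antigen, rose by 0.72, and GFRA4, a co-receptor of RET, by 0.63. The transcription factors NKX2-1 and INSM1 had log2 changes of -0.69 and -0.63. Of the markers of other cells, 1 of 11 thyroid follicular, 1 of 10 fibroblast, 3 of 10 immune and 0 endothelial genes were measured. Thyroglobulin, thyroid peroxidase, the collagens and CD45 did not pass the detection filter, and neither did PCSK1 and PCSK2 of the C-cell list.

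A large part of the measured transcriptome differed between PF-04554878 and untreated cells. Of 11150 genes, 7120 (63.9%) changed, of which 3114 (27.9%) rose and 4006 (35.9%) fell. At 2-fold, 795 genes (7.13%) rose and 1089 (9.77%) fell. At 4-fold, 93 rose and 135 fell, and 8-fold was reached by 7 rises and 8 falls. The median log2 change was -0.08, with a median SE of 0.10. The excess of falls stayed with no detection filter (3056 rose and 3913 fell) and with detection at p below 0.05 (3148 and 4009). It was nearly absent among the 8706 genes detected on all 4 arrays, where 2780 rose and 2863 fell, with a median of 0.02. That filter leaves out all genes that crossed the detection limit, described below. For 9315 genes (83.5%), both PF-04554878 arrays lay outside the range of the untreated arrays. For scale, 4266 of the same 11150 genes changed under Y15 against the same untreated arrays. The genes were kept by detection on PF-04554878 and untreated arrays, so genes detected only under Y15 are not in this count.

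**Figure D1:**
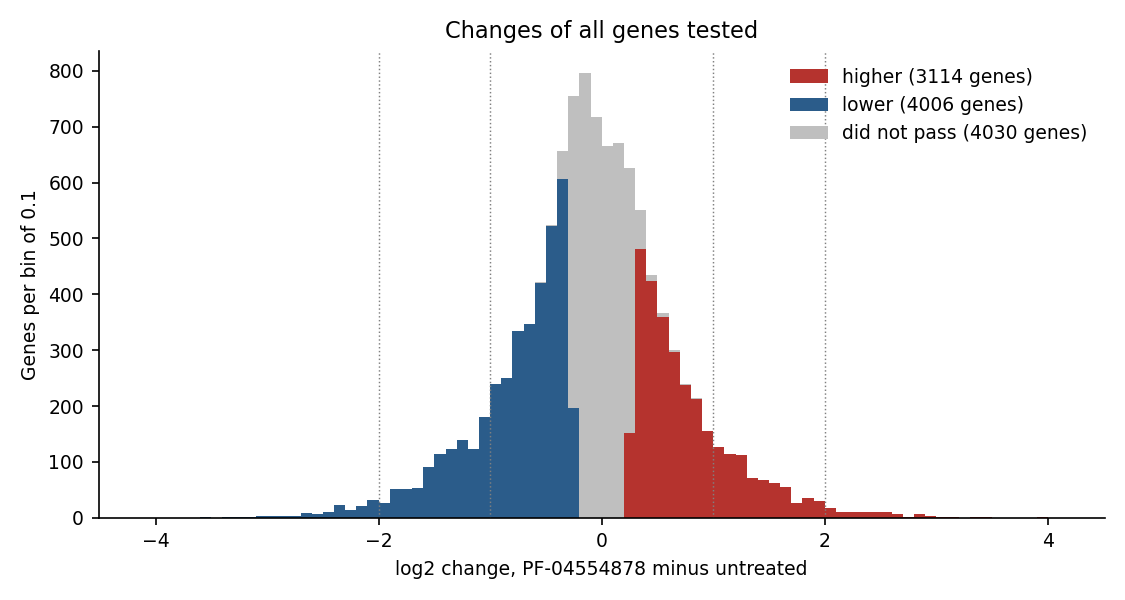
Histogram of the log2 change (x axis, PF-04554878 minus untreated) of 11150 genes in bins of 0.1 (y axis, genes per bin), with dotted lines at 2-fold and 4-fold. The 3114 genes that rose and the 4006 that fell lie on both sides of the 4030 that did not pass.

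The direction of small changes depended on how the arrays were scaled. Where each array was scaled to its median over all probes, the median gene moved to -0.61, with 951 genes higher and 7557 lower. Where it was scaled to the median of the probes detected on all 6 arrays, the median gene moved to 0.34, with 5860 higher and 2643 lower. Background correction left the split nearly as it was and enlarged the changes, with 998 genes past 4-fold under nec (offset 16). Below, where the median of a gene list or the order of its counts turned under a median scaling, the value under that scaling is given. The counts of each list are to be read beside the 27.9% that rose and the 35.9% that fell over all genes tested.

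The 15 largest falls are given first. DKK1, a secreted inhibitor of Wnt signaling, measured 6.93 and 7.03 in PF-04554878 cells and 10.75 and 10.33 in untreated cells. Its log2 change of -3.56 (adjusted p = 6.47e-07) was the largest fall among genes passing at 2-fold, although the second, dimmer probe of DKK1 changed by only -0.39. SHISA2, a member of a family first known in the frog for holding Frizzled and FGF receptors in the ER, was at 7.73 and 7.59 under PF-04554878 and at 10.95 and 11.07 without it (log2 change -3.35). UBE2T, the ubiquitin-conjugating enzyme of the Fanconi pathway, was at 8.39 and 7.90, against 11.51 and 11.26 in untreated cells. PSMA4, an alpha subunit of the proteasome, was at 8.46 and 8.40, against 11.66 and 11.58 in untreated cells, and its second probe also fell, by 2.09. AURKA, the kinase that matures the spindle poles, was at 7.54 and 7.79, against 10.68 and 10.77 in untreated cells, and its 2 probes changed by -3.06 and -3.01. That the groups of arrays did not overlap was a condition for choosing these genes. Further falls among the 15 largest were MRPL36 (-3.25), SMIM32 (-3.04), SNRPG (-3.01), COPS5 (-2.93), RGS2 (-2.92), ENY2 (-2.92), LRRN2 (-2.88), EMG1 (-2.87) and the mitotic genes CENPA and CDKN3, described below.

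The largest rises included DIDO1 and KLF6. DIDO1, which codes for a chromatin-binding protein first linked to apoptosis, measured 11.26 and 11.44 in PF-04554878 cells, against 7.28 and 7.43 in untreated cells. The change of 3.99 was the largest of all rises, but it came from 1 of 2 probes, and the dimmer probe changed by 0.39. KLF6, a zinc finger transcription factor and growth suppressor, was at 11.39 and 11.55, against 7.85 and 8.23 in untreated cells (log2 change 3.43). TNFSF13B, which codes for the cytokine BAFF, was at 10.29 and 10.60, against 7.30 and 7.25, and its 2 probes rose by 3.17 and 3.15. HBP1, a repressor of cell cycle genes, was at 10.60 and 10.55, against 7.63 and 7.49 in untreated cells, and its 2 probes rose by 3.01 and 3.13. WDR20 rose by 3.39 on its brightest probe, while its other probes changed by -0.15 and -0.12. The others were NFS1 (3.39), TICAM2 (3.01), HNRNPDL (2.996, second probe 0.52), ZNF317 (2.94), CIART (2.93), ELAVL1 (2.90), MAGT1 (2.89), PPM1D (2.88), ATG14 (2.88) and MXD1 (2.81). In MAGT1 the untreated arrays lay apart, at 8.03 and 9.08, and both PF-04554878 arrays were above them, at 11.26 and 11.62.

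**Figure D2:**
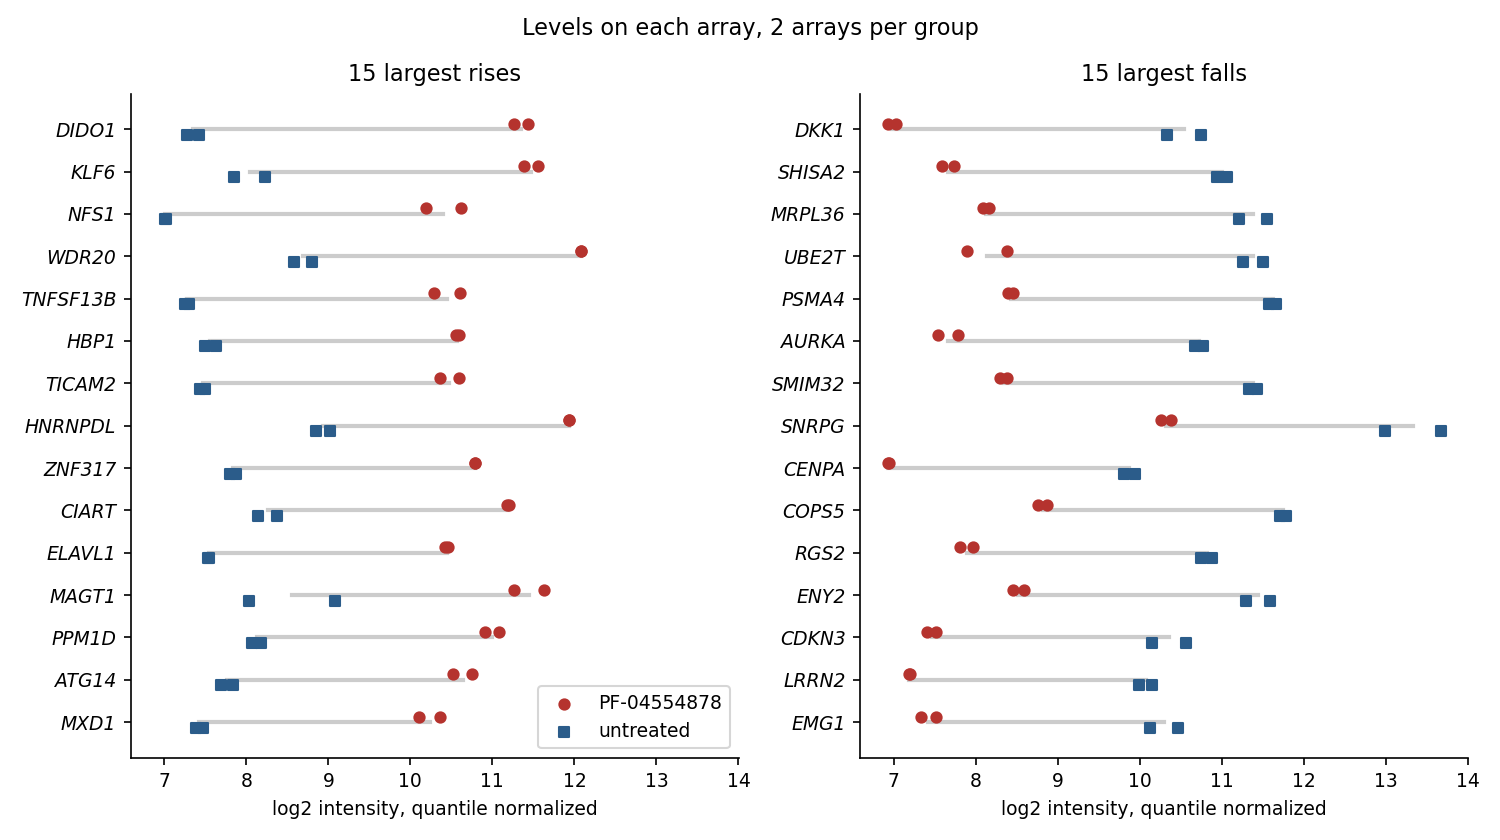
Quantile normalized log2 intensity (x axis) of the 15 genes with the largest rises (left) and falls (right), with red circles for the 2 PF-04554878 arrays, blue squares for the 2 untreated arrays and a gray line between the group means. The 30 genes were chosen among those whose groups do not overlap. DIDO1 has the widest gap, with PF-04554878 arrays at 11.26 and 11.44 and untreated arrays at 7.28 and 7.43.

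Agreement between probes was used as a second look at a gene. Of 2823 genes with several kept probes, 597 had at least 2 probes that rose and none that fell, 662 had at least 2 that fell and none that rose, and 126 had probes that passed in opposite directions. For 1955 genes with 2 probes detected on all 4 arrays, the brightest probe and the one after it had changes that correlated at 0.767 across genes, which are not independent replicates. Among 4-fold changes with several probes, the next brightest probe changed at least 2-fold the same way in 21 of 32 rises and in 31 of 38 falls. Rises borne by 2 probes included the small Maf factor MAFG (2.71 and 2.69), the stress-induced autophagy factor TP53INP1 (2.61 and 2.48), the RNA-binding protein CELF1 (2.50 and 2.45), WDR37 (2.42 and 2.37) and the adaptor LAT2 (2.48 and 2.31). Falls borne by 2 probes included ZBED5 (-2.58 and -3.36), the coenzyme A synthesis enzyme PPCS (-2.67 and -2.39) and the nuclear export receptor of importin alpha, CSE1L (-2.22 and -2.05).

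Some genes crossed the detection limit. There were 234 genes detected on both PF-04554878 arrays and on neither untreated array, of which 226 passed as higher. In the other direction there were 1445 genes, of which 877 passed as lower. The direction of these genes follows from their choice by detection in 1 group. Fewer probes of any kind were detected on the PF-04554878 arrays, 15215 and 15671 against 17474 and 18488. For genes so chosen, a fold is a bound, with the undetected group set to the lowest detected signal of each array or to its own, where higher. The dendritic lectin CLEC4A was at least 6.13-fold higher in PF-04554878 cells, the acetylcholine receptor anchor RAPSN at least 5.57-fold, skeletal actin ACTA1 at least 5.54-fold, the bile acid receptor GPBAR1 at least 4.84-fold and the cold shock protein YBX3 at least 4.24-fold. CENPA was at least 7.20-fold lower, the tRNA methyltransferase METTL1 at least 5.83-fold, the exosome subunit EXOSC3 at least 4.95-fold, DLGAP5 at least 4.78-fold and NDC80 at least 4.24-fold.

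FAK itself was examined at the RNA level. PTK2, which codes for FAK, measured 11.77 and 11.38 in PF-04554878 cells and 11.35 and 11.42 in untreated cells. The groups overlapped and the change of 0.19 did not pass (95% interval -0.10 to 0.48, adjusted p = 0.22). It rested on the first PF-04554878 array: it was -0.00264 without that array and 0.38 (adjusted p = 0.023) without the other, and -0.31 and 0.63 under the median scalings. Of 30 measured partners of FAK at focal adhesions, 4 (13.3%) rose and 8 (26.7%) fell, both below the 27.9% and 35.9% of all genes tested. The balance of this list turned with the scaling, with 2 higher and 22 lower under median scaling over all probes and 14 higher and 6 lower when arrays were scaled to the probes detected on all arrays. The adaptors CRKL and GRB2, which link adhesion receptors to Ras family signaling, rose by 1.45 and 1.31, and GIT1 and ARHGEF7 by 0.76 and 0.60, of which the last 2 turned negative under median scaling over all probes. LIMS1, a partner of integrin-linked kinase, fell by 1.199, and CSK, the kinase that switches off Src, by 0.95. Of 11 integrin subunits 5 rose and 0 fell. ITGAV and ITGB1, which form receptors for vitronectin and fibronectin, rose by 0.61 and 0.55, and ITGB5 and ITGB2 by 0.40 and 0.36, and all of these turned negative under median scaling over all probes. ITGA11 was not detected in untreated cells and was at least 1.195-fold higher under PF-04554878. The list median of 0.26 turned to -0.21 under median scaling over all probes, with 0 higher and 4 lower.

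Genes of mitosis and of DNA replication were mostly lower. Histone genes went both ways, with 11 of 29 higher and 5 lower (6 higher and 11 lower under median scaling over all probes). H4C3 (-2.55) and H2AZ1 (-2.05) fell, while H2BC21 (2.27), H2BC8 (1.65) and H2BC5 (1.43) rose. The summed intensity of the histone list was 41601 to 41860 on the PF-04554878 arrays, against 59921 to 61905 on the untreated arrays. The mitotic program is switched on late in the cell cycle and prepares chromosome condensation, spindle assembly and division. Of 27 measured genes of mitotic entry, 24 (88.9%) fell and 0 rose, with a median log2 change of -1.43. The median level of these genes was 7.75 and 7.73 on the PF-04554878 arrays, against 9.47 and 9.30 on the untreated arrays. AURKB, the kinase of the chromosomal passenger complex, was at 7.74 and 7.67, against 10.37 and 10.52 in untreated cells. CCNB2, a mitotic cyclin, was at 8.44 and 8.44, against 11.04 and 10.99. CDKN3, a phosphatase that acts on cyclin-dependent kinases, was at 7.51 and 7.41, against 10.56 and 10.16. CCNA2, the cyclin of S phase and mitotic entry, was at 7.63 and 7.47, against 9.68 and 9.63. The checkpoint kinase BUB1 fell by 2.19. The genes that did not pass were PLK1, WEE1 and FOXM1, with changes of -0.02, -0.20 and -0.26.

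Of 42 genes of the kinetochore, the centromere and the spindle checkpoint, 35 (83.3%) fell and 2 rose, with a median of -0.94. CENPA, the histone variant that marks centromeres, was at 6.93 and 6.94 under PF-04554878, where it was not detected, against 9.94 and 9.81 in untreated cells. Its second probe fell by 0.90. NDC80, which binds microtubules at the kinetochore, was at 6.79 and 6.83, where it was not detected, against 9.25 and 8.97 in untreated cells. CENPW changed by -2.29 and, outside the list, the spindle protein KNSTRN by -2.38. CENPU rose by 0.73 and INCENP by 0.37, of which CENPU no longer passed and INCENP turned negative under median scaling over all probes. In the list of the anaphase-promoting complex and cytokinesis, 15 of 23 genes fell and 4 rose, with its activator CDC20 at -2.46, its ubiquitin-conjugating enzyme UBE2C at -1.95 and the spindle protein NUSAP1 at -2.01. Of 24 kinesins 15 fell, among them the mitotic motors KIF20A (-1.77), KIF11 (-1.61) and KIF4A (-1.27), while KIFC2, KIF3B and KIF2A rose by 0.42 to 0.96, the last 2 turning negative under median scaling over all probes. KIF20A, KIF11, KIF4A, CCNA2, AURKA and AURKB also stand in gene lists that the study drew from these same arrays, so they are not independent evidence of a direction. In the list of condensin, cohesin and topoisomerase II, 12 of 19 fell and 4 rose. The fall was in condensin and topoisomerase, with NCAPG at -2.37, NCAPD2 at -2.28, SMC4 at -1.79 (second probe 0.29) and TOP2A at -1.51. The cohesin genes RAD21 (1.15) and NIPBL (1.37) rose, as did SMC1A (0.36) and WAPL (0.30), both of which turned negative under median scaling over all probes.

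Genes of DNA replication were also mostly lower. Of 54 genes of replication and nucleotide supply, 43 (79.6%) fell, 23 of them by 2-fold, and 1 rose, with a median of -0.87. MCM6, a subunit of the replicative helicase, was at 8.84 and 8.56 under PF-04554878, against 11.47 and 11.56 in untreated cells. POLA2, a subunit of the primase complex, was at 7.19 and 7.18, against 9.78 and 9.88. RFC4, which loads the sliding clamp, was at 8.33 and 8.20, against 10.14 and 10.13, and its probes changed by -1.87 and -2.40. Geminin (GMNN) and the polymerase subunit POLE2 changed by -2.10 and -2.07, and POLE3, a histone-fold protein shared with chromatin remodelers, rose by 0.75 (-0.036 under median scaling over all probes). Of 23 genes of the Fanconi pathway and homologous recombination, 20 (87.0%) fell, led by FANCL (-1.87) and RAD51C (-1.35 and at least -0.98 on all 3 of its probes). XRCC2 was the exception, at 9.77 and 10.01 in PF-04554878 cells and at 7.94 and 8.60 in untreated cells. Among cyclins of the first gap phase, CDK inhibitors and the RB family, 15 of 25 fell and 5 rose. CDK4 (-2.30), CCND1 (-1.89), E2F2 (-2.04) and CDK2 (-1.18), which drive passage into S phase, were among those that fell. The lists of mitotic entry, the kinetochore, cytokinesis, replication, recombination and the first gap phase kept medians below that of all genes under each alternative tried.

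The promoters of these genes were read for known cell cycle elements, since genes of mitosis and of S phase are regulated through different motifs. Promoters came from RefSeq (GRCh38.p14), from 250 bases before to 50 after the start, for 9018 of the 11150 genes tested. The sequences TTTGAA (the core of the cell cycle homology region), CCAAT, GGCGGGAA (an E2F site) and CACGTG (an E-box) were searched on both strands. Of the promoters of fallen kinetochore genes, 50% of 30 held TTTGAA, as did 61.5% of 13 in the cytokinesis list, 53.8% of 13 kinesins and 72.7% of 11 in the condensin list, beside 9.79% of all genes tested. Of 38 promoters of fallen replication genes, 2.63% held TTTGAA and 26.3% held GGCGGGAA, beside 5.21% of all genes tested, and 29.4% of 17 fallen Fanconi and recombination genes held GGCGGGAA. The mitotic entry list is left out because fewer than 80% of its fallen genes had a promoter in the table. Over all genes that fell by 2-fold the shares were 13.7% for TTTGAA and 6.85% for GGCGGGAA, and over those that rose by 2-fold 7.35% and 2.40%. A match is a description of these letters and not a test of a factor. The promoters of CENPA and CDKN3 are shown for the TTTGAA and CCAAT class and that of RFC4 for the E2F class, 5′ to 3′ on the strand of the gene, with matches on either strand in capitals. They lie at chr2:26785806-26786105 (plus strand), chr14:54396757-54397056 (plus strand) and chr3:186806433-186806732 (minus strand).
CENPA: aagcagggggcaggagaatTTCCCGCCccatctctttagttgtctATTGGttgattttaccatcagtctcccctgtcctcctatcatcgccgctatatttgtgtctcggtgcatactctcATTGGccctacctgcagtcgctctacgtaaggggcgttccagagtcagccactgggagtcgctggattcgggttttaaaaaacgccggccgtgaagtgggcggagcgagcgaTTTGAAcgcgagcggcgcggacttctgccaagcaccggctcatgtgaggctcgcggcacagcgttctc
CDKN3: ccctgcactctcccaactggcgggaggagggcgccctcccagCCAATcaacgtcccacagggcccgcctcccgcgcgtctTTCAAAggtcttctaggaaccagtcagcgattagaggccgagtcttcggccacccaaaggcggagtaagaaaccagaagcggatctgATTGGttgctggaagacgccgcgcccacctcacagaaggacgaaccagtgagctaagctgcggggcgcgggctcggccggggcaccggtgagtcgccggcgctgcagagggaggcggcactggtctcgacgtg
RFC4: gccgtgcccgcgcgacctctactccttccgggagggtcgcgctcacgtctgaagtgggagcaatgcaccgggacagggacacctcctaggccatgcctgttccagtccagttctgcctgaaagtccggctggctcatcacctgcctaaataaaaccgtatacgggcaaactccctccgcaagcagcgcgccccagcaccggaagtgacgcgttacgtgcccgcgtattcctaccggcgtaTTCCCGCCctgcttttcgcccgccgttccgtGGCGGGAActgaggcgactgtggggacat
In CENPA the TTTGAA lies 18 bases before the start, with CCAAT at -130 and -205 on the opposite strand and GGCGGGAA at -231. In CDKN3, TTTGAA lies at -170 and CCAAT at -83 and -208. RFC4 holds GGCGGGAA at -10 and at 22.

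Mitochondrial ribosomal proteins fell about as widely as the mitotic genes. The mitochondrial ribosome translates the few proteins encoded by mitochondrial DNA, and its proteins are encoded in the nucleus. Of 77 measured, 63 (81.8%) fell, 34 of them by 2-fold, and 3 rose, with a median of -0.90. Their median level was 8.95 and 8.97 on the PF-04554878 arrays, against 10.24 and 9.98 on the untreated arrays. MRPL36 was at 8.09 and 8.17, against 11.55 and 11.21 in untreated cells, and MRPS6 at 9.92 and 9.79, against 12.31 and 12.23. MRPL17 (-2.38), MRPL46 (-2.21) and MRPL15 (-2.003) followed. MRPL44 went the other way, at 10.49 and 10.49 under PF-04554878, against 8.69 and 8.29 in untreated cells, and MRPL30 and MRPS30 rose by 0.41 and 0.37, both turning negative under median scaling over all probes. By contrast, of 68 proteins of the cytosolic ribosome, 13 (19.1%) rose and 5 (7.35%) fell, with a median of 0.08. When arrays were scaled to the probes detected on all arrays, 63 of them rose and 2 fell, with a median of 1.14, while 57 of the mitochondrial ones fell and 7 rose, with a median of -0.83. Those that fell were RPL34, RPS26, RPL29, RPS21 and RPL36A, and those with the largest changes were RPL14 (1.43) and RPL34 (-1.30, second probe 0.31, and 0.70 without the first untreated array, when the brightest probe changed). Of 44 genes of mitochondrial import and carriers 22 fell and 6 rose, against 19 lower and 14 higher when arrays were scaled to the probes detected on all arrays. TIMM23, the pore of the inner membrane translocase, was at 9.93 and 10.05, against 12.20 and 12.16, and its 4 probes changed by -2.19 to -1.42. TIMM10 fell by 2.35, while TIMM22 (1.37) and the carrier SLC25A38 (1.49) rose. Of 71 subunits of the respiratory complexes 31 fell and 4 rose, and 4 falls reached 2-fold, among them NDUFA8 (-1.5004). Their median of -0.23 turned to 0.31 when arrays were scaled to the probes detected on all arrays, with 37 higher and 9 lower.

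Among genes of the proteasome and of RNA machinery, more fell than rose in each list. Of 43 proteasome subunits and assembly factors, 27 (62.8%) fell and 6 rose, with a median of -0.46. Besides PSMA4, the largest falls were in the assembly chaperones PSMG2 (-2.08) and PSMG1 (-1.97 and -1.85 on its 2 probes) and in PSMD6 (-2.01) and PSMC6 (-1.98, second probe 0.39). PSMD14, the deubiquitinase of the lid, rose by 1.05. Of 42 genes of ribosome biogenesis 23 (54.8%) fell and 5 rose, with the small subunit processing factors EMG1 at -2.87, IMP3 at -2.63 and BYSL at -1.99. Of their promoters, 40% of 20 held the E-box CACGTG, beside 10.6% of all genes tested. Of 28 subunits of RNA polymerases I, II and III, 19 (67.9%) fell and 4 rose, with a median of -0.63. POLR1H, a subunit of polymerase I, fell on each of 3 probes (-1.59 to -1.53), POLR2A, the catalytic subunit of polymerase II, fell by 1.44, and POLR1F rose by 1.28, followed by POLR1B (0.59) and by POLR1C and POLR2B, which turned negative under median scaling over all probes. Among Sm, LSm and core spliceosome proteins 28 of 53 fell and 10 rose. SNRPG, a ring protein of the spliceosomal particles, was at 10.39 and 10.26 under PF-04554878, against 13.67 and 12.99 in untreated cells, and LSM2 and GEMIN6 changed by -2.38 and -2.08. In the list of the exosome, decay and export factors 22 of 37 fell and 7 rose, among them EXOSC3, given above as a bound, and the decapping factor DCP1A at 1.72.

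**Figure D3:**
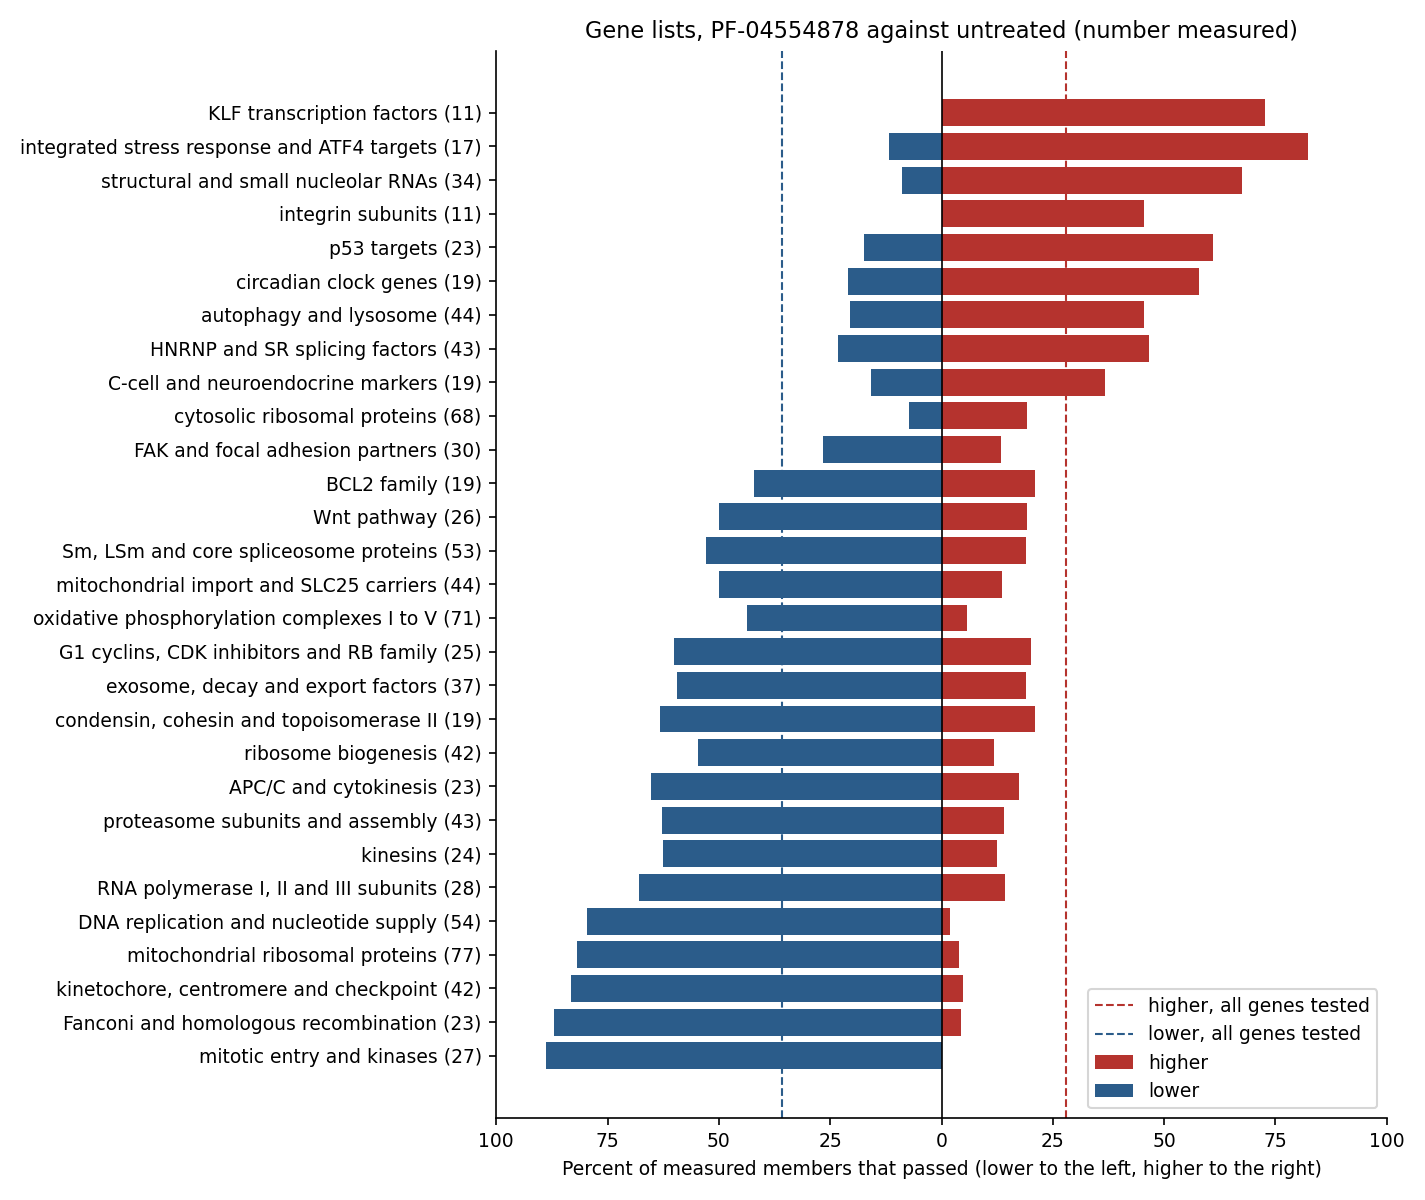
Percent of the measured members of 29 gene lists (x axis) that rose (red, to the right) or fell (blue, to the left) in PF-04554878 cells, with the number measured in parentheses and dashed lines at the shares of all genes tested, 27.9% and 35.9%. Mitotic entry has the widest blue bar, at 88.9%, and the integrated stress response the widest red bar, at 82.4%.

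Splicing regulators moved both ways. Of 43 HNRNP and SR proteins, which bind RNA and steer splice choice, 20 (46.5%) rose and 10 (23.3%) fell. HNRNPDL was at 11.93 and 11.94 under PF-04554878, against 8.85 and 9.02 in untreated cells, and ELAVL1, which stabilizes AU-rich messages, at 10.42 and 10.46, against 7.54 and 7.55. SRSF4 rose by 1.69, while SRSF7 and SRSF3 fell, with changes of -2.0002 and -1.80. The list median of 0.16 turned to -0.40 under median scaling over all probes, with 7 higher and 25 lower. Outside the list, CCNL1, a cyclin of nuclear speckles, rose on both probes (2.61 and 1.97), and the speckle protein SON rose on 4 of its 5 probes by at least 1.04 (1.04 to 2.34) and by 0.57 on the dimmest.

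Probe signals of small structural RNAs were mostly higher. Whether the labeling captured these RNAs in proportion to their abundance was not tested. These are noncoding RNAs of the spliceosome, the nucleolus and transcription control, and many have near-identical copies that a probe may not separate. Of 34 measured, 23 (67.6%) rose and 3 fell, with a median of 0.52, which was 0.09 under median scaling over all probes. U6 RNA (RNU6-1) was at 12.84 and 12.55 in PF-04554878 cells, against 10.52 and 10.26 in untreated cells. RN7SK, the RNA that holds the elongation factor P-TEFb inactive, was at 10.01 and 10.04, against 7.91 and 7.70, and rose on both probes (2.22 and 1.89). U1 RNA (RNU1-1) rose by 2.10, the Y RNA RNY5 by 1.499 and RNU4-2 by 1.16. SNORA61 (-1.55), SNORD104 (-0.96) and SNHG12 (-0.63) fell. Over all genes tested and grouped by their RefSeq class, 10 of 11 small nuclear RNAs rose and 0 fell, as did 16 of 27 microRNA genes with 1 lower, while of 10647 protein coding genes 2925 rose and 3896 fell.

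**Figure D4:**
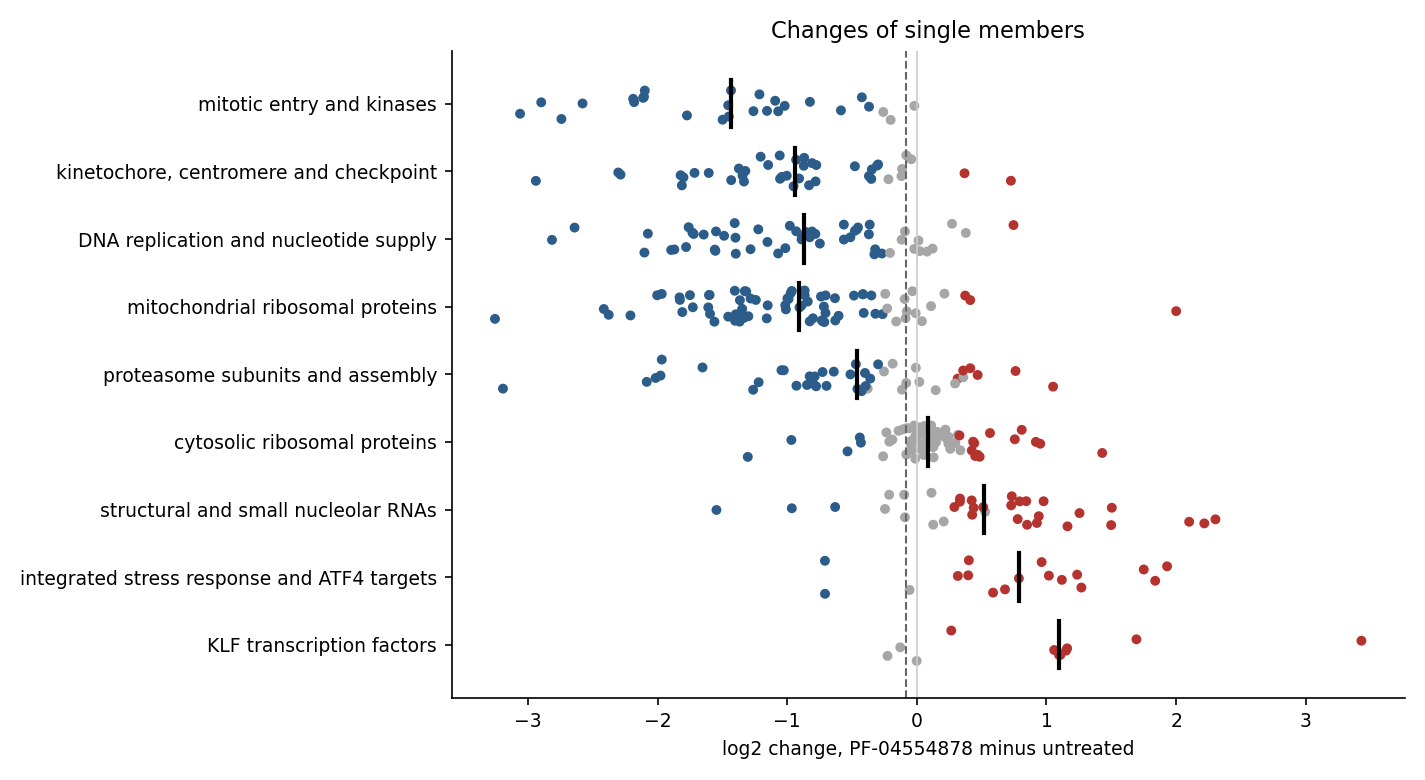
Log2 change (x axis, PF-04554878 minus untreated) of each measured member of 9 gene lists, with red points for genes that rose, blue for genes that fell and gray for genes that did not pass, black bars for list medians and a dashed line at the median of all genes, -0.08. The 27 genes of mitotic entry all lie below 0, while the 68 cytosolic ribosomal proteins gather near 0.

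Several transcription factors of the KLF family rose. These zinc finger factors bind GC-rich promoters and many restrain proliferation. Of 11 measured KLF and SP genes, 8 (72.7%) rose and 0 fell, with a median of 1.10. Under median scaling over all probes 5 rose and 3 fell, with a median of 0.29. After KLF6, SP3 rose on both probes (1.69 and 1.39), and KLF13, KLF10, KLF9, KLF2 and KLF12 rose by 1.06 to 1.16, although KLF13 and KLF9 did not pass under that scaling. MXD1, which competes with MYC for MAX, was at 10.11 and 10.36, against 7.38 and 7.48 in untreated cells, while its relative MXD3 fell by 1.41.

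Several genes of the circadian clock rose. In the clock, CLOCK and BMAL1 drive the period and cryptochrome genes through E-boxes, and the products of these genes repress their own transcription. Of 19 measured, 11 (57.9%) rose and 4 fell, with a median of 0.38. Under median scaling over all probes 8 rose and 9 fell, with a median of 0.19. CIART, a repressor of CLOCK and BMAL1, was at 11.18 and 11.21 under PF-04554878, against 8.38 and 8.14 in untreated cells. PER2 was at 10.83 and 10.96, against 8.40 and 8.59, and CRY2 and CRY1 rose by 1.59 and 1.198. CSNK1D, PER3, CSNK1E and NPAS2 fell, with changes of -0.51 to -0.33. The promoter of CIART at chr1:150282304-150282603 (plus strand) is shown with its E-boxes in capitals, which lie at -129, -71 and -57.
CIART: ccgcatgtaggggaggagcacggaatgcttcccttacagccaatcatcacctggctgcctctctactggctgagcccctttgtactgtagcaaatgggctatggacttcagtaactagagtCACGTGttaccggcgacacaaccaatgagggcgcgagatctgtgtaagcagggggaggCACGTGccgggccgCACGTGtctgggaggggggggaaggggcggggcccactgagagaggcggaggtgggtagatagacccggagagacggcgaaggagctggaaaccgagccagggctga
Of 11 promoters of risen clock genes, 27.3% held CACGTG, beside 10.6% of all genes tested.

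Targets of p53 and ATF4, which answer DNA damage and amino acid shortage, moved in both directions. Of 23 p53 targets 14 (60.9%) rose and 4 fell. Their median change was 0.61, and -0.40 under median scaling over all probes, with 8 higher and 11 lower. PPM1D, a phosphatase that ends p53 signaling, was at 11.09 and 10.92, against 8.18 and 8.07 in untreated cells. SESN1, which restrains mTORC1, was at 10.89 and 11.16, against 8.54 and 8.34, and its relative SESN2 rose by 1.75. The nuclease AEN rose on both probes (1.31 and 1.59). TP53I3 (-0.78) and PHLDA3 (-0.56) fell, as did PLK2 and DDB2, which were not detected in PF-04554878 cells and turned positive when arrays were scaled to the probes detected on all arrays. Of 17 genes of the integrated stress response, 14 (82.4%) rose and 2 fell, with a median of 0.79 (0.19 under median scaling over all probes). KLHL24 (1.93), STC2 (1.84), CEBPG (1.27), TXNIP (1.24) and ATF3 (1.12) were among those that rose, and DDIT3 (CHOP) and ATF5 (both -0.71) fell. Outside this list, asparagine synthetase (ASNS) was at 11.81 and 12.06, against 9.84 and 9.77, and CREBRF rose on both probes (2.44 and 2.24). Of 44 autophagy and lysosome genes 20 (45.5%) rose and 9 fell, with ATG14, which starts autophagosome formation, at 10.76 and 10.52, against 7.83 and 7.69, and WIPI2 at 9.46 and 9.66, against 7.51 and 7.53. The list median of 0.28 turned to -0.30 under median scaling over all probes, with 6 higher and 21 lower. TSC1, a brake on mTORC1, rose on both probes (1.98 and 1.72).

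Growth factor signaling and cell death genes changed in both directions. ERBB3, a receptor of the EGF receptor family, was at 8.78 and 8.59 in PF-04554878 cells, against 6.89 and 6.998 in untreated cells, and its 3 probes rose by 0.98 to 1.74. The cytokine gene IL17B was not detected in untreated cells and was at least 2.30-fold higher under PF-04554878. RASL11B fell by 0.84, while the text of the study names it among genes raised by this compound. The study's list of genes specific to this compound holds RASL11A, which rose by 1.11 here. CCDC125 rose by 1.23 (adjusted p = 0.0059), but its untreated arrays lay at 7.56 and 8.56, and without the second PF-04554878 array its adjusted p was 0.052. In the Wnt list 13 of 26 fell and 5 rose, against 10 lower and 12 higher when arrays were scaled to the probes detected on all arrays. DKK1, CCND1 and the receptor FZD8, which was not detected in PF-04554878 cells and was at least 2.34-fold lower, fell, with CTNNB1 (0.99 and 0.997 on its 2 probes) and GSK3B (1.32) higher. HOXB8, a homeobox factor of body patterning, was at 8.66 and 8.79, against 11.29 and 11.50. RHOA rose by 1.23 and its inhibitor ARHGDIA fell by 1.06. Of 19 BCL2 family genes 8 (42.1%) fell and 4 (21.1%) rose, near the 35.9% and 27.9% of all genes, and 7 were lower and 10 higher when arrays were scaled to the probes detected on all arrays. The survival factors BCL2 (-1.15), BCL2L1 (-1.06) and BCL2L2 (-1.05) fell, as did the killer BIK (-1.44) and BCL2L13 (-1.09). MCL1 was at 11.43 and 11.35, against 9.45 and 9.79, although its second probe changed by 0.25, and the p53 and stress targets BMF and BBC3 rose by 0.88 and 0.61. DIABLO, which relieves caspase inhibition, fell by 1.66, with 0.09 on its dimmest probe, and the death receptor adaptor FADD fell by 2.24 while the TRAIL receptor TNFRSF10B rose by 1.502. HSPA8, the constitutive HSP70 chaperone, was at 11.51 and 11.68, against 13.64 and 13.68 in untreated cells. The mitochondrial chaperonin partner HSPE1 was at 10.64 and 9.98, against 12.05 and 12.07, and the metallothionein MT1E was at 8.20 and 8.15, against 10.60 and 10.35. ERBB3, IL17B, RASL11B, CCDC125, AEN, HSPA8, DIABLO, BIK and ARHGDIA were named by the study from these arrays, and its gene lists also hold several of the largest changes given above, among them DIDO1, TNFSF13B, HBP1, PSMA4, MAGT1 and RGS2.

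Genes that fell tended to be short in the genome. Genomic span, from the first to the last base of a gene in RefSeq, had a median of 27.6 kb over all genes tested, 17.2 kb over genes that fell by 2-fold, 12.01 kb over those that fell by 4-fold and 34.1 kb over those that rose by 2-fold. With the genes in 4 equal classes of span, in the shortest class 14.4% fell and 4.99% rose by 2-fold, against 6.10% and 7.57% in the longest. This is a description across genes, with no test.

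**Figure D5:**
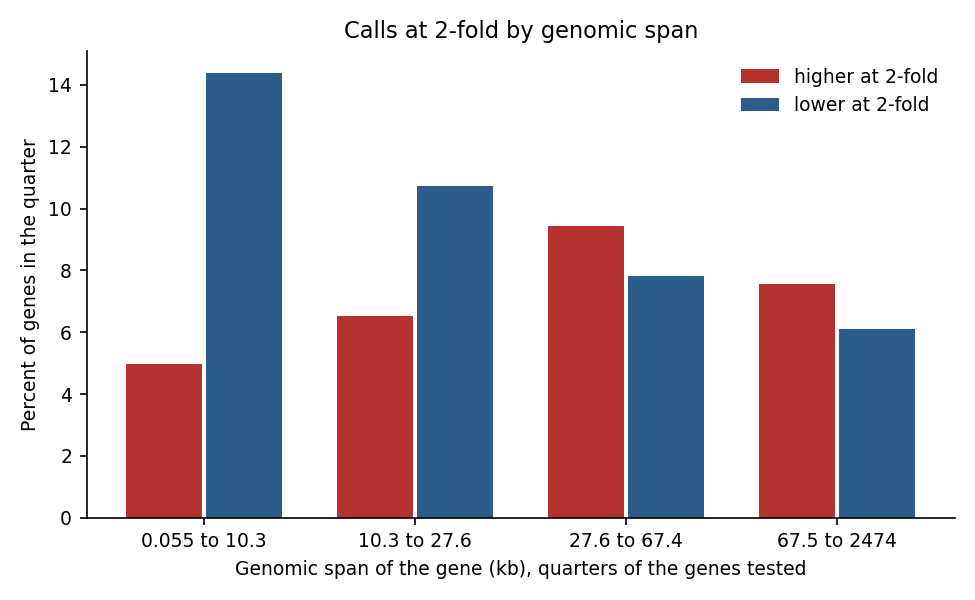
Percent of genes (y axis) that rose (red) or fell (blue) by at least 2-fold in PF-04554878 cells, in 4 equal classes of the genes tested by genomic span (x axis, kb). Falls reach 14.4% in the shortest class and 6.10% in the longest.

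Differences between the compounds, both at 10 μM, were tested directly for genes named above, without the untreated arrays in the contrast. Over all 11150 genes 6837 (61.3%) differed between PF-04554878 and Y15, of which 3185 were higher and 3652 lower under PF-04554878. RGS2, which shortens G protein signals, had the widest gap of the genes named here, with a change of -2.92 under PF-04554878 and 2.22 under Y15, and a difference of -5.15 (SE 0.10, adjusted p = 3.43e-08). DDIT3 differed by -3.95 and ATF3 by -2.98, with changes of -0.71 and 1.12 under PF-04554878 and of 3.24 and 4.10 under Y15. DIDO1 (4.25 higher under PF-04554878), PSMA4 (-3.14) and MRPL36 (-3.05) differed as well, with changes of -0.25, -0.05 and -0.20 under Y15. Of the 77 mitochondrial ribosomal proteins 60 were lower and 6 higher under PF-04554878 than under Y15, and of the 43 proteasome genes 30 were lower and 7 higher. Of the 27 genes of mitotic entry 17 were lower and 4 higher under PF-04554878 than under Y15, and 26 of them fell under Y15 itself. For KIF11 and KIF20A the difference between the compounds did not pass. KIF11 changed by -1.61 under PF-04554878 and by -1.45 under Y15 (difference -0.16, 95% interval -0.38 to 0.06, adjusted p = 0.19), and KIF20A by -1.77 and -1.55 (difference -0.21, 95% interval -0.44 to 0.0070, adjusted p = 0.084).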

How the data were processed

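RNA of 6 plates of TT cells, in 3 groups of 2 taken from the labels, was profiled on Illumina BeadChips. Probes were named from the HumanHT-12 v4 annotation, which their identifiers match, although the methods speak of HumanRef-8 chips. The deposited intensity values are bead means on a linear scale, not normalized, each with a deposited detection p-value against negative control beads, from GenomeStudio, whose version is not given in the sources here. The authors' deposited log2 table, quantile normalized with lumi, matched the values recomputed here within 5.0e-09.

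Quantile normalization was run on log2 intensities of every probe. Group means of all 6 arrays were fitted with limma 3.58.1 in R 4.3.3, with two-sided moderated tests and Benjamini-Hochberg adjustment over all 11150 genes. The code was tested on simulated data with known changes. Precision is limited by the number of arrays, 2 a group. No columns of per-sample values were left out.

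Genes were named when they were among the 15 largest rises or falls with arrays of the groups apart, among those borne by several probes, up to 5 members of each gene list or the largest bounds, together with PTK2 and the genes the study names for this compound. Provisional gene names were not printed. The members and lists were chosen with earlier results of these data known. Alternatives comprised other scalings, background corrections, detection filters, choices of probe, a replicate block and leaving out each array.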

Additional observations from a re-analysis of the deposited data

How the results depend on the processing

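With 2 arrays a group, a wide change in 1 array could not be told from the others, and changes of dim genes are compressed by background. With each kept probe tested in place of genes, 10956 of 18234 probes changed, 5324 of them higher, including probes with no named gene. Under median scaling over all probes, 951 genes were higher and 7557 lower, 3799 changed 2-fold and 825 changed 4-fold, and PTK2 was at -0.31. Scaled to the probes detected on all arrays, 5860 were higher and 2643 lower, and PTK2 was at 0.63. Changes of 2-fold and 4-fold numbered 3996 and 998 under nec (offset 16) and 4132 and 1087 under neqc, and 476 genes passed 4-fold under nec with an offset of 50. Leaving out 1 array at a time gave 5724 to 6855 changed genes, 2497 to 2995 higher, 2898 to 3860 lower, 1637 to 1930 at 2-fold, 191 to 275 at 4-fold and 5527 to 6463 between the compounds, and a PTK2 change of -0.00264 to 0.38.

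The replicate numbers did not pair the samples (correlation of deviations 0.207 between PF-04554878 and untreated arrays, -0.103 and -0.268 for the pairs with Y15). With the replicate number as a block, 7110 genes changed, 7042 of them shared with the fit without it, 3111 higher and 3999 lower.

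Of the named genes, those that changed sign under median scaling over all probes were ITGAV (-0.30), ITGB1 (-0.18), ITGB5 (-0.49), ITGB2 (-0.21), CALCA (0.19), POLE3 (-0.0362), INCENP (-0.29), MRPS30 (-0.38), MRPL30 (-0.47), ARHGEF7 (-0.24), GIT1 (-0.10), WAPL (-0.57), SMC1A (-0.0053), KIF2A (-0.51), KIF3B (-0.47), POLR1C (-0.0359) and POLR2B (-0.52). Scaled to detected probes, CALCA (1.14), PLK1 (0.15), PLK2 (0.22) and DDB2 (0.20) did so, and with the mean of a gene's probes CALCA (0.0606) and CSNK1E (0.0436). Leaving out 1 array at a time gave -0.207 to 0.0217 for CALCA, -1.43 to 0.701 for RPL34 and -0.054 to 0.0161 for PLK1. The cause was not tested.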

Other observations

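Probes without a gene name also changed. Of the 3645 kept probes with no named gene, 34 rose and 15 fell by at least 4-fold in PF-04554878 cells.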
